A study of Mus musculus with 6 samples.

Results

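Dcxr, Ephx1 and Dglucy encode 3 metabolic enzymes whose transcripts were among the largest rises with 4-OH tamoxifen, given to restore p53, in mouse lung adenocarcinoma cell lines. They were picked by gene symbol because of that response, and the platform annotation gave each of them 1 probe set, so 3 of the 22690 probe sets on the array and 3 of 12393 named genes are described. The study used 3 cell lines, KPR4, KPR5 and KPR8, each derived from a lung adenocarcinoma on a mixed C57/B6-129SvJae background. One culture of each line received 250 nM 4-OH tamoxifen in ethanol for 24 h, which restores p53 expression according to the labels, and the other received ethanol, giving 6 arrays with 1 per line and treatment. The labels do not list the alleles of the lines. In the published mouse model, as background, the p53 alleles are silenced by a removable stop cassette, which a Cre recombinase activated by tamoxifen excises. No array of cells without a restorable p53 allele was analysed here, so effects of the drug and of p53 cannot be told apart. The lines are the replicates, each being a separate tumour line, and the number of arrays limits the precision.

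p53 is a transcription factor that stress stabilises and that raises genes of growth arrest, cell death, repair and metabolism. Dcxr encodes dicarbonyl and L-xylulose reductase, a short-chain dehydrogenase that turns L-xylulose into xylitol in the glucuronate pathway and also reduces reactive dicarbonyls. Ephx1 encodes microsomal epoxide hydrolase, which opens epoxides made from foreign compounds by cytochromes P450 and is known from liver and lung as a detoxifying enzyme. Dglucy encodes D-glutamate cyclase, a mitochondrial enzyme that converts D-glutamate into 5-oxo-D-proline.

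The promoter windows of the 3 genes, which were picked for their rise, are shown as RefSeq gives them on GRCm38.p6. Each spans 250 bases before and 50 bases after the annotated start of the gene, 5′ to 3′ on the gene's strand. Capitals mark the letters CCAAT (the CCAAT box), GGGCGG (the GC box) and TATAAA (the TATA box) on either strand, and no marked match overlaps another.
Dcxr promoter, chr11:120727235-120727534, minus strand: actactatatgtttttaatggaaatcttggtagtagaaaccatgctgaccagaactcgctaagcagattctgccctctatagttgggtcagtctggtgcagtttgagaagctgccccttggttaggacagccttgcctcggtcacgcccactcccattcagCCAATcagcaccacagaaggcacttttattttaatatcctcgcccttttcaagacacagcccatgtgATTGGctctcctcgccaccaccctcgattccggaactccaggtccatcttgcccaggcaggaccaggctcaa
Ephx1 promoter, chr1:181017520-181017819, minus strand: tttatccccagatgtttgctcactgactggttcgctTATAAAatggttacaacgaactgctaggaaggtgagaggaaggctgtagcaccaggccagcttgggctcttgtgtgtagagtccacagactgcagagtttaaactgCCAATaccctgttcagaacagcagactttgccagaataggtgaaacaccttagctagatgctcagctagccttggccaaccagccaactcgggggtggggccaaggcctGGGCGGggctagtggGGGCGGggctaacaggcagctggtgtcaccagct
Dglucy promoter, chr12:100778807-100779106, plus strand: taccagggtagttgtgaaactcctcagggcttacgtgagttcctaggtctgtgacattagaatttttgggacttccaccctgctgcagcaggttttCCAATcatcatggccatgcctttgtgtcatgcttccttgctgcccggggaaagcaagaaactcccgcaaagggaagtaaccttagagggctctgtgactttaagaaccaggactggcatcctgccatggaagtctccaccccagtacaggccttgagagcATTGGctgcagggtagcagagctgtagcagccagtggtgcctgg
The p53 half-site consensus was searched in the same windows on both strands without mismatches. It had 0 matches in the Dcxr, Ephx1 and Dglucy windows, and 8.36% of 32851 promoter windows of 300 bases in the table had 1 or more. The CCAAT box was the only one of these motifs found in all 3 windows, with 2 matches for Dcxr, 1 for Ephx1 and 2 for Dglucy, and 37.4% of all windows held it. The GC box matched at 2 places in the Ephx1 window, at bases 252 to 257 and 267 to 272, just downstream of the annotated start, and was in 35.7% of all windows. The TATA box matched once in the Ephx1 window, at bases 37 to 42, far from the start, and was in 13.6% of all windows. These are matches of letters, not measured binding, and sites outside these windows were not searched.

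The values are log2 expression per probe set, so a difference of 1 is a doubling. A level of one probe set is not set against that of another, except for background controls and in the marker summaries. The 27 probe sets for Bacillus subtilis transcripts, which mouse cells lack, lay between 1.13 and 2.84 and give the background. A level above them is not in itself a call of expression. Dcxr read 8.70, 7.83 and 6.77 with 4-OH tamoxifen in KPR4, KPR5 and KPR8, against 4.03, 3.18 and 2.76 with ethanol in the same order. The lowest treated array lay 2.74 above the highest ethanol array, so the groups did not overlap. The mean level was 7.77 ± 0.97 with 4-OH tamoxifen and 3.32 ± 0.65 with ethanol (SD, n = 3 each).

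Ethanol levels of Dcxr were near background in KPR5 and KPR8. They exceeded the highest control by 1.19 in KPR4 and by 0.34 in KPR5, and lay under it in KPR8, with a difference of -0.08. The log2 change was 4.67 in KPR4, 4.66 in KPR5 and 4.01 in KPR8. With the KPR8 ethanol array set to the highest control, the KPR8 change is at least 3.94, which is at least 15.3-fold. The KPR4 and KPR5 changes correspond to 25.5-fold and 25.2-fold, and the near-background KPR5 start makes the second of these approximate. Over the 3 lines the mean rise was at least 21.4-fold.

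Ephx1 read 10.21, 8.33 and 8.04 with 4-OH tamoxifen in KPR4, KPR5 and KPR8, against 7.66, 3.43 and 3.36 with ethanol. KPR4 was the highest line under either treatment, and its ethanol level lay 4.82 above the highest control, while those of KPR5 and KPR8 lay only 0.59 and 0.53 above it. The groups did not overlap, but the margin was narrow: the lowest treated array, KPR8, was 0.38 above the KPR4 ethanol array. The mean level was 8.86 ± 1.18 with 4-OH tamoxifen and 4.82 ± 2.46 with ethanol (SD, n = 3 each).

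The log2 change of Ephx1 was 2.55 in KPR4, 4.90 in KPR5 and 4.67 in KPR8, or 5.87-fold, 29.9-fold and 25.5-fold, of which the KPR5 and KPR8 folds are approximate because their ethanol levels were near background. The line with the highest ethanol level thus had the smallest change of this gene. The ethanol level is itself part of the change. For Dcxr the highest ethanol level (4.03) and the largest change (4.67) were both in KPR4. The KPR5 change of Dcxr was nearly equal (4.66) and its KPR8 change is a lower bound (3.94), so no opposite relation is shown. The SD of the Ephx1 change over the 3 lines was 1.29, and 0.0262% of the 7644 genes past the expression filter had a larger one. That share was 19% for Dcxr and 6.88% for Dglucy. Of the other genes with a mean rise of log2 4 or more, Cdkn1a ran from 3.50 to 5.62 over the lines. Trp53inp1 ran from 3.03 to 4.81 and Ak1 from 5.44 to 5.94. Without KPR4 the mean change of Ephx1 was 4.79, against 4.04 over all 3 lines. With 1 array per line and treatment, the difference in response between lines has no test.

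Dglucy read 8.21, 9.38 and 8.33 with 4-OH tamoxifen in KPR4, KPR5 and KPR8, against 4.40, 4.87 and 3.55 with ethanol. KPR5 was the highest line under either treatment, and the lowest treated array was 3.34 above the highest ethanol array. The ethanol levels were 1.56, 2.04 and 0.72 above the highest control, so every ethanol array lay above it. The mean level was 8.64 ± 0.65 with 4-OH tamoxifen and 4.27 ± 0.67 with ethanol (SD, n = 3 each).

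The log2 change of Dglucy was 3.81 in KPR4, 4.51 in KPR5 and 4.77 in KPR8, corresponding to 14.1-fold, 22.8-fold and 27.3-fold, the KPR8 fold being approximate for the same reason. KPR8, with the lowest ethanol level, had the largest change of this gene, but KPR5, with the highest, did not have the smallest. The mean rise was 20.6-fold, and the SD of the change was 0.50, against 0.38 for Dcxr and 1.29 for Ephx1.

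**Figure D1:**
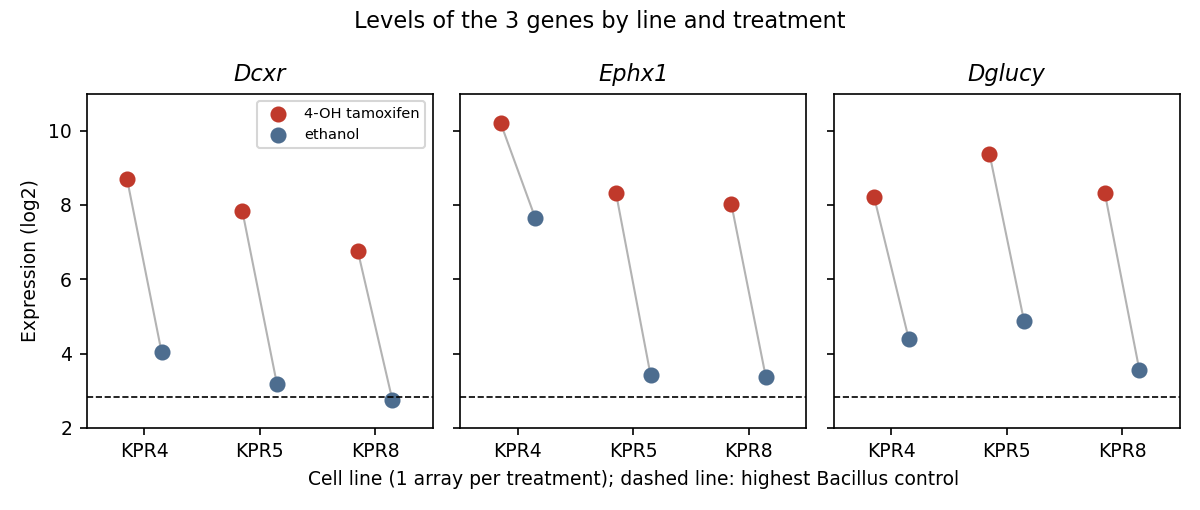
Expression (log2, vertical axis) of Dcxr, Ephx1 and Dglucy in KPR4, KPR5 and KPR8, with 1 point per array, 4-OH tamoxifen to the left of ethanol in each line and a grey line joining the pair. The dashed line is the highest Bacillus control (2.84). The Dcxr ethanol level of KPR8 (2.76) lies at it, and the Ephx1 ethanol level of KPR4 (7.66) stands well above those of the other two lines.

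In rank of mean rise among the 7644 genes tested, Dcxr was at 3, Dglucy at 4 and Ephx1 at 6. Every treated array was above every ethanol array for all 3, as it was for 7.48% of the genes tested. The change reached log2 2 in each line for all 3, and for 0.275% of the genes tested. These values chose the genes, so they are a description and carry no test. The rank within a line moved most for Ephx1, which held rank 27 in KPR4, rank 2 in KPR5 and rank 4 in KPR8. Dcxr was at 4, 4 and 6 and Dglucy at 6, 5 and 3. To be tested, a gene needed 3 arrays with a level of log2 4 or more, and all 3 genes had that through the treated arrays: only 1 ethanol array of Dcxr, 1 of Ephx1 and 2 of Dglucy were at that level.

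The genes were picked for their response to treatment, and levels between lines, averaged over both treatments, are a separate contrast that could be tested. Each line had 1 array per treatment, so the treated and ethanol arrays of a line stand in for replicates. The error of the test is then the unequal response of the lines, with the variance drawn mostly from other genes. In limma's moderated F-test of the line term, with p-values adjusted over all genes by Benjamini-Hochberg, the lines differed for Dcxr (adjusted p = 0.00019), Ephx1 (adjusted p = 1.9e-05) and Dglucy (adjusted p = 0.0033). Of all genes tested, 42.0% passed this test, so passing it is common on these arrays. Since the 3 genes passed the filter through their treated arrays, the fit without a filter bears on this too, and there the adjusted p was 0.00055 for Dcxr, 0.00015 for Ephx1 and 0.0070 for Dglucy.

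Dcxr and Ephx1 had the same order of lines and Dglucy another. For Dcxr it was KPR4, KPR5 and KPR8, with means of 6.36, 5.51 and 4.76 on the log2 scale, and each step passed limma's pairwise test: KPR4 exceeded KPR5 by 0.86 ± 0.22 (SE, adjusted p = 0.0094) and KPR5 exceeded KPR8 by 0.74 ± 0.22 (adjusted p = 0.030). The KPR8 mean of Dcxr includes the ethanol array under the highest control, and with such values set to that control KPR5 exceeded KPR8 by 0.70 (adjusted p = 0.041). The share of all genes that passed was 27.5% for KPR4 minus KPR5, 30.3% for KPR4 minus KPR8 and 19.2% for KPR5 minus KPR8. For Ephx1 the means were 8.93, 5.88 and 5.70. KPR4 exceeded KPR5 by 3.05 ± 0.39 (SE, adjusted p = 4.4e-05 in limma) and KPR8 by 3.23 ± 0.39 (adjusted p = 1.9e-05). KPR5 and KPR8 differed by 0.18 ± 0.39 (adjusted p = 0.78), less than its error, and without KPR4 the F-test gave an adjusted p of 0.66.

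For Dglucy the line means were 6.30 in KPR4, 7.13 in KPR5 and 5.94 in KPR8. KPR4 minus KPR5 was -0.82 ± 0.24 (SE, adjusted p = 0.018 in limma) and KPR5 minus KPR8 was 1.19 ± 0.24 (adjusted p = 0.0038). KPR4 and KPR8 differed by 0.37 ± 0.24, which did not pass (adjusted p = 0.27), and without KPR5 the F-test gave an adjusted p of 0.25. The line ordering of Dcxr and Ephx1 was the same under both treatments, although KPR5 and KPR8 were close for Ephx1 (3.43 and 3.36 with ethanol). Their order for Ephx1 is not resolved. The ordering of Dglucy was not the same, since KPR8 (8.33) was just above KPR4 (8.21) with 4-OH tamoxifen and below it with ethanol.

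Among the other enzymes of the pathways around the 3 genes, the mean log2 changes ran from -0.70 to 1.36. The treatment contrast was tested in limma with a term for the line, and at an adjusted p under 0.05 it called 10.5% of the genes higher and 8.94% lower with 4-OH tamoxifen. Without the line term 22 genes were higher and 1 lower. The median change over all genes tested was 0.00. The counts that follow leave out Dcxr, Ephx1 and Dglucy, and a list's count at the adjusted threshold is to be read against those shares. An unadjusted p under 0.05 is a looser threshold, and the share of all genes at it is not given here.

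In the glucuronate and xylulose pathway, 10 of 17 other listed genes had a named probe set and 6 passed the filter. Of these, 0 were higher and 1 was lower in limma, against 1 and 1 at an unadjusted p under 0.05, and the median change was 0.07. The gene that fell was Xylb, encoding xylulokinase, which phosphorylates the D-xylulose made from xylitol. Xylb read 6.30, 5.67 and 5.30 with 4-OH tamoxifen in KPR4, KPR5 and KPR8, against 6.82, 6.64 and 5.91 with ethanol. It was lower in each line, by a mean of -0.70 ± 0.17 (SE, limma adjusted p = 0.0097), although without KPR5 the adjusted p was 0.085. Ugdh, which makes UDP-glucuronate, had a change of 0.27 ± 0.10 (adjusted p = 0.081), and Akr1a1, an aldehyde reductase upstream of L-xylulose, one of 0.12 ± 0.10 (adjusted p = 0.46).

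Among other carbonyl reductases and short-chain dehydrogenases, 22 of 35 listed genes passed the filter, 3 were higher and 0 lower in limma (5 and 2 at an unadjusted p under 0.05), and the median change was 0.09. The 3 that rose were Hsd17b11 (0.85 ± 0.20 SE), Hsd17b4, a peroxisomal enzyme of fatty acid oxidation (0.78 ± 0.16), and Hsdl2 (0.62 ± 0.14), with limma adjusted p of 0.0068, 0.0024 and 0.0070. A second probe set gave 0.11 for Hsd17b11, 0.32 for Hsd17b4 and 0.69 for Hsdl2. The call of Hsd17b11 ended without KPR5 (adjusted p = 0.063) and without KPR8 (adjusted p = 0.098), and that of Hsdl2 without KPR4 (adjusted p = 0.073). The carbonyl reductases Cbr1 and Cbr4, of the same enzyme family as Dcxr, did not pass the test, with values of 0.09 ± 0.17 and -0.08 ± 0.19 (SE, limma adjusted p = 0.76 and 0.80). Cbr2 lay between 2.33 and 2.69 on the 6 arrays, under the highest control. Cbr3 did not pass the filter and read 7.98, 3.88 and 3.14 with 4-OH tamoxifen in KPR4, KPR5 and KPR8, against 7.79, 3.33 and 3.02 with ethanol.

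Of the other epoxide and xenobiotic enzymes, 22 of 39 listed genes passed the filter, with 5 higher and 0 lower in limma, and likewise 5 and 0 at an unadjusted p under 0.05. The median change was 0.15. Mgst1, a microsomal glutathione transferase, rose by 1.20 ± 0.18 (SE, adjusted p = 0.00024), with a value of -0.03 on its second probe set. Gsto1, an omega-class glutathione transferase, read 12.85, 12.23 and 12.24 with 4-OH tamoxifen, against 11.67, 11.23 and 11.39 with ethanol in KPR4, KPR5 and KPR8. It rose by 1.01 ± 0.10 (adjusted p = 7.7e-06), and by 0.82 on its second probe set. Mgst2 rose by 0.76 ± 0.17 (adjusted p = 0.0056), Cyb5a, the electron carrier cytochrome b5, by 0.70 ± 0.13 and Pgrmc1 by 0.48 ± 0.14. Ephx2, the soluble epoxide hydrolase, read 6.26, 5.48 and 3.16 with 4-OH tamoxifen, against 5.91, 5.25 and 3.54 with ethanol, a change of 0.07 ± 0.18 (adjusted p = 0.84). Cyp1a1 and Cyp1a2, which make epoxides from polycyclic hydrocarbons, did not exceed 2.73 on any array.

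In glutamate metabolism, 16 of 33 other listed genes passed the filter, 2 were higher and 3 lower in limma (2 and 6 at an unadjusted p under 0.05), and the median change was -0.21. Gclc, the catalytic subunit that joins glutamate to cysteine for glutathione, rose by 1.36 ± 0.20 (SE, limma adjusted p = 0.00024), and Gss, which completes glutathione, by 0.82 ± 0.20 (adjusted p = 0.0086, and 0.084 without KPR4). Gclm, the modifier subunit, had a change of -0.19 ± 0.17 (adjusted p = 0.49). The 3 that fell were Got1, the cytosolic aspartate aminotransferase (-0.69 ± 0.16, adjusted p = 0.0080, and 0.077 without KPR5), Asns, asparagine synthetase (-0.60 ± 0.18, adjusted p = 0.032), and Slc1a5, a glutamine transporter (-0.57 ± 0.16, adjusted p = 0.024). With a gene's probe sets averaged, 5 genes of the list were lower, and 1 without KPR5 or without KPR8. Ddo and Dao, the oxidases of D-amino acids, lay at 1.82 to 2.44 on the 6 arrays, under the highest control.

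Known metabolic targets of p53 gave a further comparison: 12 of 19 passed the filter, 6 were higher and 0 lower in limma, likewise 6 and 0 at an unadjusted p under 0.05, and the median change was 0.39. The list was drawn up with results of these arrays known. Ak1, adenylate kinase 1, rose by 5.74 ± 0.17 (SE, adjusted p = 1.8e-11) on its brighter probe set, with a value of 0.24 on the other. Pltp, a phospholipid transfer protein, rose by 1.87 ± 0.22 (adjusted p = 3.9e-05) and Acad11, an acyl-CoA dehydrogenase, by 1.79 ± 0.18 (adjusted p = 8.8e-06). Sco2, Rrm2b and Gpx1 of the same list had changes of 0.09 ± 0.18, 0.12 ± 0.14 and 0.05 ± 0.11 (adjusted p = 0.78, 0.60 and 0.83). Thus 1 of the 12 had a mean change as large as those of Dcxr, Ephx1 and Dglucy.

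**Figure D2:**
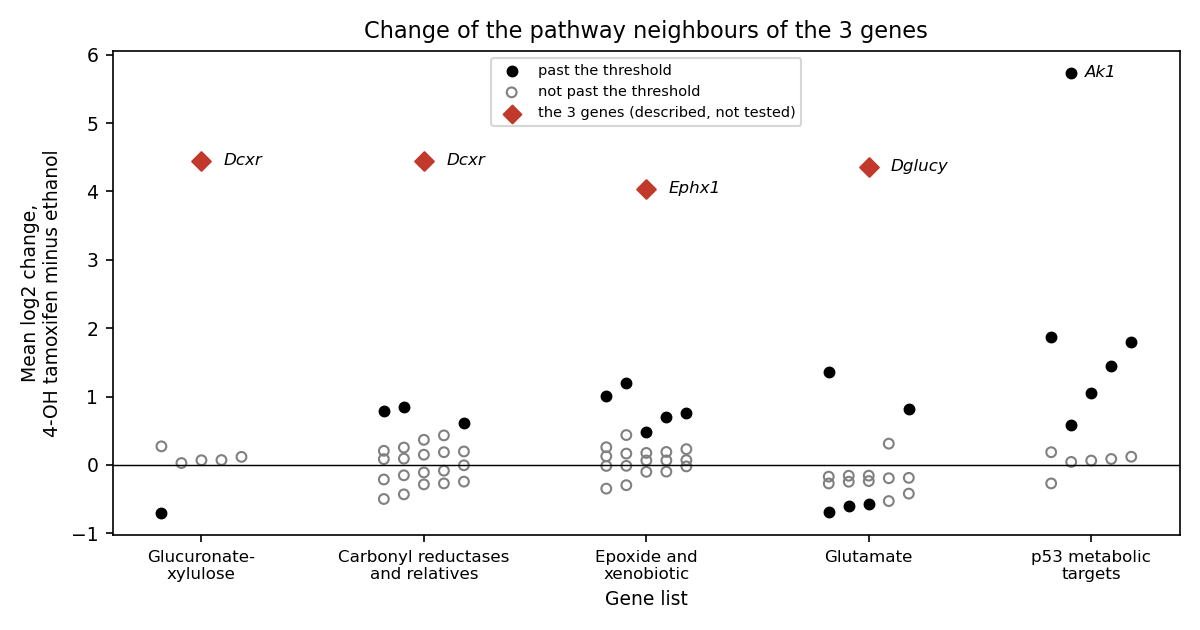
Mean log2 change over the 3 lines, 4-OH tamoxifen minus ethanol (vertical axis), for the genes past the filter in 5 lists, with filled circles for genes past limma's adjusted threshold and open circles for the others. Red diamonds are Dcxr (4.45), Ephx1 (4.04) and Dglucy (4.37), placed with their pathways, where the other genes lie between -0.70 and 1.36; Ak1 (5.74) stands alone in the last list.

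Averaged over both treatments, most of the detoxifying transcripts were highest in KPR4. All 22 of the epoxide and xenobiotic genes past the filter, Ephx1 left out, differed between lines in limma's F-test, against 42.0% of all genes tested. In 16 of the 22, KPR4 was above both KPR5 and KPR8 with each pairwise adjusted p under 0.05, against 7.73% of all genes tested. Hnf4a, a liver and gut transcription factor on the list of hepatocyte markers, was also high in KPR4, with 12.51, 7.87 and 5.55 in KPR4, KPR5 and KPR8 with 4-OH tamoxifen and 12.39, 7.40 and 5.72 with ethanol. Ttr, a liver secretory protein, read 6.58, 3.41 and 3.22 with 4-OH tamoxifen and 8.86, 3.22 and 3.24 with ethanol, while Alb did not exceed 3.70 on any array. The mean of the 5 hepatocyte markers was 3.61 to 5.84 with 4-OH tamoxifen and 3.76 to 6.37 with ethanol, and its part in the line difference was not tested. The count of 16 ran from 12 to 20 under the 7 alternative settings that kept all 3 lines and the line term. Both ends came from the filter, which changes how many genes are counted: 12 with a stricter filter, and 20 of 35 without one. It was 14 or 16 under the other settings. The share over all genes is not given for these settings. Gsta4, a glutathione transferase for lipid aldehydes, was 3.43 ± 0.16 (SE) higher in KPR4 than in KPR5 and 5.39 ± 0.16 higher than in KPR8 (limma adjusted p = 1.5e-09 and 5.1e-12). Gstm1 was 3.00 ± 0.21 and 4.53 ± 0.21 higher, and the quinone reductase gene Nqo1 2.66 ± 0.23 and 3.39 ± 0.23 higher. Gsta4, Gstm1 and Nqo1 were named after their values were seen. None of them changed with treatment past the threshold, with values of 0.18 ± 0.13, -0.01 ± 0.17 and 0.07 ± 0.19 (limma adjusted p = 0.40, 0.97 and 0.84).

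Ephx1 was also highest in KPR4 under both treatments, by a margin that was smaller with 4-OH tamoxifen. KPR4 exceeded the mean of KPR5 and KPR8 by 2.02 with 4-OH tamoxifen and by 4.26 with ethanol for Ephx1. The same excess was 4.35 and 4.46 for Gsta4, 3.69 and 3.84 for Gstm1, and 3.17 and 3.56 for Mgst2. Of the 22 genes, 11 had a smaller and 11 a larger excess with 4-OH tamoxifen. It was larger for Nqo1 (3.33 with 4-OH tamoxifen and 2.73 with ethanol), Cyp2s1 (3.36 and 2.38) and Gsta2 (1.68 and 0.95), and Cyp2s1 and Gsta2 were named after their values were seen. Whether the excess of Ephx1 differs between treatments has no test with 1 array per line and treatment.

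**Figure D3:**
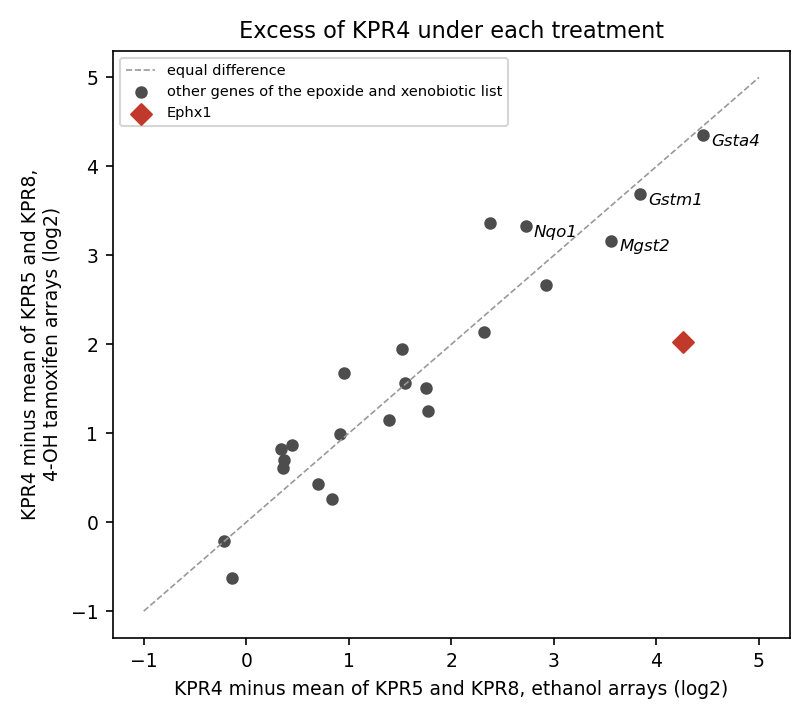
Excess of KPR4 over the mean of KPR5 and KPR8 (log2) on the 4-OH tamoxifen arrays (vertical axis) and the ethanol arrays (horizontal axis) for Ephx1 (red diamond) and the other 22 genes of the epoxide and xenobiotic list past the filter (grey points). The dashed line marks equal excess; Ephx1 (2.02 with 4-OH tamoxifen, 4.26 with ethanol) lies below it, and Gsta4 (4.35 and 4.46) lies close to it.

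Profiles over the 6 arrays, each centred on its own mean, were compared by their root mean square difference, a measure that takes in both the treatment change and the pattern over lines. The 5 genes nearest to Dcxr were Psrc1 (0.67 on the log2 scale), Trp53inp1 (0.72), Abhd4 (0.72), Ptp4a3 (0.75) and Zmat3 (0.76). Those nearest to Ephx1 were Btg2 (0.87), Psrc1 (1.03), Trp53inp1 (1.05), Pqlc3 (1.07) and Abhd4 (1.08). Btg2, an antiproliferative gene, showed the smallest change in KPR4 (2.19) and larger ones in KPR5 (3.58) and KPR8 (3.03), as did Ephx1. The change was also smallest in KPR4 for Psrc1 (3.05), Trp53inp1 (3.03), Pqlc3 (2.40) and Abhd4 (2.76). These genes were picked for profiles near that of Ephx1, so a like pattern over the lines is partly built in. Those nearest to Dglucy were Cdkn1a (0.61), which encodes the cyclin-dependent kinase inhibitor p21, Phlda3 (0.71), Dcxr (0.79), Ptp4a3 (0.84) and Zmat3 (0.87). Dcxr and Dglucy were thus closer to each other than either was to Ephx1, from which Dcxr differed by 1.13 and Dglucy by 1.69.

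**Figure D4:**
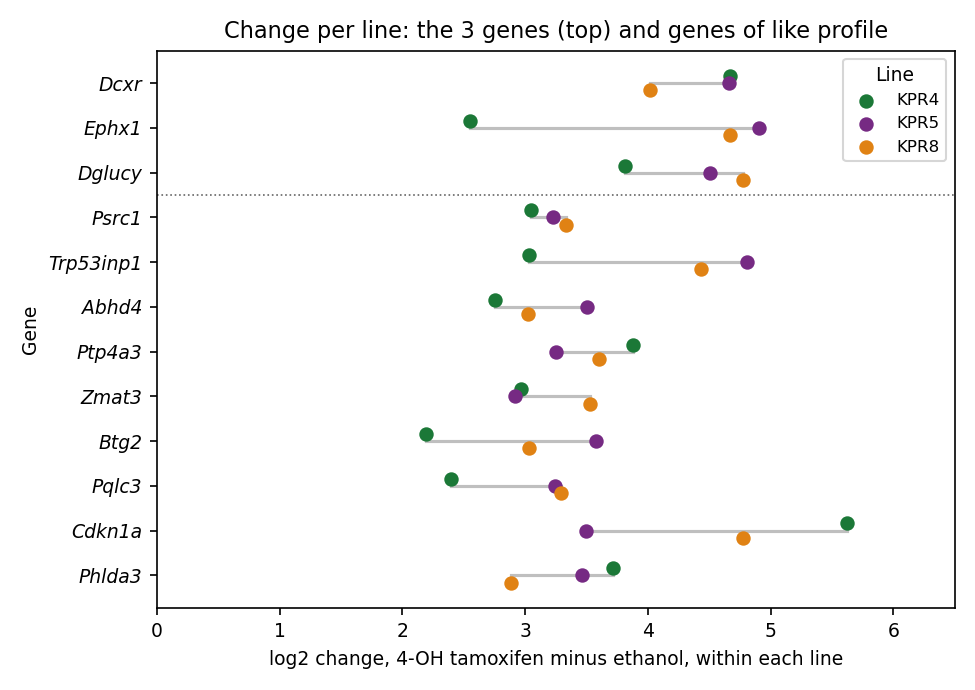
Log2 change with 4-OH tamoxifen minus ethanol (horizontal axis) in KPR4 (green), KPR5 (purple) and KPR8 (orange) for Dcxr, Ephx1 and Dglucy, above the dotted line, and for the genes of nearest profile below it. The grey bar spans the 3 lines. Ephx1 spans 2.55 to 4.90, with KPR4 lowest, and Dcxr 4.01 to 4.67.

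The arrays were alike in distribution, with medians between 4.56 and 4.63 and 57.2% to 57.6% of probe sets at log2 4 or above. All 8 epithelial markers passed the filter, with 2 higher and 1 lower in limma, and their mean level was 10.56 to 10.98 with 4-OH tamoxifen and 10.53 to 10.90 with ethanol. Of 8 lung markers only Aqp5 passed it. Nkx2-1, a transcription factor of lung epithelium, and Sftpc, an alveolar surfactant gene, did not exceed 2.83 and 3.13. Foxj1 of that list, a ciliated cell factor, read 3.50, 3.74 and 4.41 with 4-OH tamoxifen and 2.50, 2.89 and 3.48 with ethanol in KPR4, KPR5 and KPR8, and did not pass the filter. Of the markers of other cell types, 3 of 8 for fibroblasts passed the filter, with Col1a1 highest (up to 7.73), 3 of 7 for leukocytes, with Cd14 highest (up to 9.23) and Cd3e, a T cell marker, up to 4.37, 1 of 5 for hepatocytes (Hnf4a) and 0 of 5 for endothelium. The mean of the fibroblast markers was 3.77 to 4.10 with 4-OH tamoxifen and 3.88 to 4.11 with ethanol. Ptprc, which defines leukocytes, did not exceed 2.05. Cd68, a lysosomal protein of macrophages, rose by 1.02 ± 0.15 (SE, limma adjusted p = 2.0e-04), and the mean of the 7 leukocyte markers measured was 3.43 to 3.92 with 4-OH tamoxifen and 3.33 to 3.72 with ethanol. The part of other cell types in the results was not tested. RNA integrity was followed by the gap between the 3′ and 5′ controls, which moved with treatment by 0.24, 0.29 and -0.40 for Gapdh in KPR4, KPR5 and KPR8 and by 0.16, 0.39 and -0.07 for Actb. Its part in the results was not tested.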

How the data were processed

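The authors deposited log2 expression per probe set, and per the submitters' processing notes their tools were R 2.11.0 and GCRMA 2.20.0. That method corrects background by probe sequence and brings the arrays to a common distribution, so a change shared by most genes would be hidden. Per the labels' protocols, total RNA was amplified and biotin-labelled. No detection calls came with the values. The platform annotation gave 1 symbol for 20380 probe sets. No gene was named from the 691 with several, and 1555 had none. The probe set with the highest mean stood for a gene, and 7644 genes had log2 4 or above on at least 3 arrays. limma 3.58.1 in R 4.3.3 was fitted to these genes with terms for line and treatment and a variance trend. Its 2-sided p-values were adjusted by Benjamini-Hochberg over all genes, with a threshold of 0.05. With 2 residual degrees of freedom against a prior of 12.9, the variance of a gene is drawn mostly from other genes. The pairing is by cell line: deviations of treated and ethanol arrays correlated at 0.876, 0.737 and 0.761 in KPR4, KPR5 and KPR8. A change from an ethanol array at or under the highest Bacillus control is given as at least the change from that control. The script was tested on simulated data.

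The genes, the lists and most comparisons were chosen with earlier results of these data known. Genes were named from the lists by the 3 largest changes past the threshold, by nearest profile, or as relatives of the 3 genes. Other named genes were chosen after their values were seen, among them Ugdh, Akr1a1, Gclm, Cyp1a1, Cyp1a2, Ddo, Dao, Sco2, Rrm2b, Gpx1, Cyb5a, Pgrmc1, Asns and Slc1a5. Ephx3 and Ephx4 are not analysed here. Alternatives were the filter, the probe set rule, the line term, each line left out, normalization, the variance trend and a floor at background.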

Additional observations from a re-analysis of the deposited data

How the results depend on the processing

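The filter, the line term, the variance trend and the probe set rule cannot move the mean log2 changes of Dcxr, Ephx1 and Dglucy. With the arrays normalized again or centred on their medians they were 4.46 and 4.44 for Dcxr, 4.07 and 4.03 for Ephx1 and 4.37 and 4.35 for Dglucy, and with values under the highest control set to it 4.42 for Dcxr. With 1 line left out they ran from 4.34 to 4.66 for Dcxr, 3.61 to 4.79 for Ephx1 and 4.16 to 4.64 for Dglucy. The adjusted p of their line difference ran from 1.1e-05 to 0.012 for Dcxr, from 1.2e-07 to 0.66 for Ephx1, highest without KPR4, and from 3.7e-05 to 0.25 for Dglucy, highest without KPR5; with fewer lines this F-test compares only those that remain. Over all genes, 525 to 613 were higher and 420 to 456 lower with 1 line left out, and 1480 to 2469 differed between lines, fewest without KPR4, against 805, 683 and 3210 with all arrays. With no replicate block, that is without the line term that pairs the arrays, 22 genes were higher and 1 lower, and 12 of the 13 genes named from the lists by size lost their call. No line test is possible in that fit. The lower bound of the Dcxr change in KPR8 was 3.94, and 4.01 with the highest control of the same array, which the Dcxr level exceeds. Of 419 values under alternatives 0 reversed, and 378 stayed on their side of the threshold, or within 1.5 times for counts, or within 1 SD between lines for the changes of the 3 genes. For those genes the rule could not fail with 1 of the 3 lines left out, since that moves the mean by less than 1 SD. The count of 378 sets no limit on the size of a tested change, and Ak1 changed by 2.99 with its probe sets averaged, against 5.74. No detection calls were used, so levels near the controls are uncertain: ethanol levels of Dcxr and Ephx1 in KPR5 and KPR8, and of Dglucy in KPR8.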

Other observations

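Ephx1 was 1 of 7 genes whose KPR4 level on the ethanol arrays exceeded that of both other lines by at least its own margin of 4.23 on the log2 scale, a set defined after the values were seen. The other 6 were Selenop, a selenium carrier (6.77), Aldh3a1, an aldehyde dehydrogenase (6.26), Tff1, a mucosal peptide (5.30), Hnf4a, a gut and liver transcription factor (4.99), Cldn2, a tight junction protein (4.71), and Fgf1, a growth factor (4.66). On the 4-OH tamoxifen arrays the margin was 1.88 for Ephx1, and between 4.02 (Fgf1) and 7.04 (Selenop) for the other 6. It was smaller than with ethanol in 3 of the other 6: 5.63 for Aldh3a1, 4.64 for Hnf4a and 4.02 for Fgf1. In limma 0 of those 6 were called higher with treatment, against 10.5% of all genes tested. Counting either direction, 2 of them had an unadjusted p under 0.05. Which margins differ between treatments was not tested.

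Among genes with a mean rise of log2 2 or more, 21 of 37 had a larger SD between lines on the ethanol arrays than on the treated ones, against 44.7% of all genes tested. Ephx1 (1.18 with 4-OH tamoxifen, 2.46 with ethanol) and Dglucy (0.65 and 0.67) were among the 21, and Dcxr (0.97 and 0.65) was not.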
